A study of Mus musculus with 8 samples.

Results

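Perineuronal nets and the looser neural matrix of the spinal cord are built from a small set of genes, and 8 of them were followed here in mice lacking the miR-34/449 microRNAs. The genes were Acan, Bcan, Ncan and Vcan, which encode the lecticans aggrecan, brevican, neurocan and versican. Hapln1 and Hapln4 encode link proteins, and Tnr and Tnc encode tenascin-R and tenascin-C. They were chosen by gene symbol, 8 of the 41325 genes in the deposited tables, and all 8 were among the 17067 genes with enough reads to be tested. RNA-seq libraries were made from dissected spinal cord at postnatal day 14. The groups were lumbar cord of the triple knockout (TKO), lumbar cord of wild type (WT), thoracic cord of TKO and thoracic cord of WT, with 2 libraries each. Per the labels, TKO mice were Mir34a-/-, Mir34bc-/- and Mir449-/-, and WT mice were C57BL/6J. Neither the strain background of the TKO mice nor their sex is stated in the labels. The libraries were made from whole tissue after selection of polyadenylated RNA.

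In a perineuronal net, long hyaluronan chains at the neuron surface carry lecticans, link proteins fasten each lectican to the hyaluronan, and tenascin-R joins lecticans to each other. Neurocan, versican and tenascin-C are best known from the immature matrix, whereas aggrecan, brevican, tenascin-R and the link proteins mark the mature one, which forms around many spinal neurons, motor neurons among them, in the first weeks after birth. In the central nervous system astrocytes are a main source of brevican, neurocan and tenascin-C, cells of the oligodendrocyte lineage of tenascin-R and versican, and neurons of aggrecan and link proteins. MicroRNAs bind their targets mostly through the seed, and the miR-34/449 family shares a single one.

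The mature sequences below show that shared seed, since the labelled deletions cover the loci of all of them. They are from RefSeq (GRCm38.p6), 5′ to 3′, with the seed (bases 2 to 8) in capitals. miR-34a-5p lies at chr4:150068473-150068494 on the plus strand, miR-34b-5p at chr9:51103610-51103632 on the minus strand, and miR-449a-5p and miR-449c-5p at chr13:113037549-113037570 and chr13:113036008-113036028 on the plus strand.
miR-34a-5p: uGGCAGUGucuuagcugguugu
miR-34b-5p: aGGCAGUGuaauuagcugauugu
miR-449a-5p: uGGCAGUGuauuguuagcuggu
miR-449c-5p: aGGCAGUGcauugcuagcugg

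Matches to this seed were searched in the longest annotated 3′ UTR of each gene (GENCODE M21, GRCm38), on the transcript strand. The motifs were CACTGCC, which pairs with bases 2 to 8, and ACTGCCA, which pairs with bases 2 to 7 and is followed by A. They overlap when both are present and then form the longest match. Of 21037 annotated 3′ UTRs, 14.3% held CACTGCC, 11.7% held ACTGCCA and 19.8% held either. Bcan, Hapln1 and Tnr had matches. They are printed 5′ to 3′ with the matching bases in capitals.
Bcan, chr3:87987821-87987842, minus strand: gaccctctcacatcaACTGCCA
Hapln1, chr13:89611210-89611231, plus strand: atgtcattgctcaagACTGCCA
Tnr site 1, chr1:159927152-159927173, plus strand: aaccagtcaccagagACTGCCA
Tnr site 2, chr1:159927166-159927187, plus strand: gactgccatggattCACTGCCt
Tnr site 3, chr1:159928495-159928516, plus strand: ctacagcattttggCACTGCCA

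The Bcan match was in a UTR of 341 bases, and 6.55% of UTRs of like length held a match. The Hapln1 UTR had 3503 bases, and 42.6% of UTRs of like length held a match. Tnr had 3 matches in 7516 bases, where 64.9% of UTRs of like length held at least 1. The first and second Tnr matches lay so close that the printed stretches overlap. The UTRs of Acan, Ncan, Vcan, Hapln4 and Tnc had 0 matches. The genes with a match did not share a direction: as detailed below, TKO minus WT over both segments was 0.64 for Bcan, -0.82 for Hapln1 and -0.10 for Tnr on the log2 scale, and none of these passed the test. A match is a run of letters in an annotated UTR, and whether these sites are used in spinal cord was not tested.

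The 8 libraries held 16195212 to 20907819 reads in genes. Mitochondrially encoded genes took 4.99% of reads in TKO replicate 2 of the lumbar cord and 6.53% in TKO replicate 2 of the thoracic cord, against 9.45% to 16.8% in the other 6 libraries. Intron reads made up 6.23% and 6.69% of gene reads in these TKO libraries and 4.39% to 5.22% in the others. The precursors of the 6 deleted microRNAs had 0 reads in every library, WT included, so these data do not check the genotype labels. The segment labels fitted the Hox genes of the lumbar cord. Hoxc10, for example, had 4.99 to 15.5 CPM (gene reads scaled to library size with TMM factors) in thoracic libraries and 43.4 to 52.3 CPM in lumbar ones. Whether the libraries came from separate mice is not stated, and a lumbar and a thoracic library may share a mouse. A p-value here therefore reflects how far these samples spread, and that spread may be technical. An n of 4 for a genotype counts 2 lumbar and 2 thoracic libraries.

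Per exon length, brevican was the most abundant transcript of the set and aggrecan the least. Levels between genes are given as deposited RPKM (exon reads scaled by exon length and library size), as mean ± SD over all 8 libraries. Bcan was at 81.1 ± 25.7 RPKM, above 97.5% of the tested genes, and Acan at 1.15 ± 0.134 RPKM, above 29.8%. Ncan followed Bcan with 30.9 ± 3.56 RPKM, Tnr had 27.5 ± 4.73 RPKM and Hapln4 19.1 ± 2.16 RPKM. In thoracic WT replicate 1, Bcan at 36 RPKM stood little above Tnr at 34.7 RPKM. By gene reads, without regard to exon length, the thoracic WT means were 458 CPM for Tnr and 237 CPM for Bcan. Hapln1 had 6.05 ± 2.18 RPKM, Vcan 5.86 ± 1.03 RPKM and Tnc 3.82 ± 0.899 RPKM. The ranges of Bcan and Ncan did not overlap over the 8 libraries, nor did those of Hapln4 and Hapln1 or of Tnc and Acan. The other neighbours in this order, Ncan and Tnr, Tnr and Hapln4, Hapln1 and Vcan, and Vcan and Tnc, overlapped. Of the members of each family in this set, Hapln4 was thus above Hapln1 and Tnr above Tnc. The Hapln4 level rests on exon reads that rarely crossed an exon junction, as given below. Hapln2, a link protein outside the set, had 20.6 ± 8.9 RPKM, and its range overlapped that of Hapln4.

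**Figure D1:**
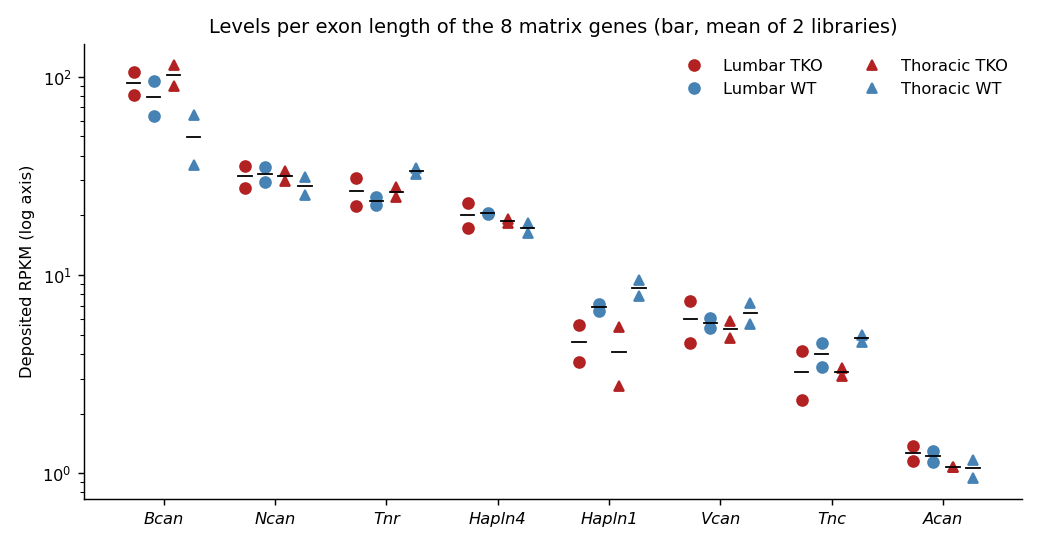
Deposited RPKM on a log axis for the 8 genes, ordered by mean; circles are lumbar and triangles thoracic libraries, red TKO and blue WT, and a bar is the mean of 2 libraries. Bcan stands highest at 36.0 to 115 RPKM and Acan lowest at 0.944 to 1.37 RPKM.

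None of the 8 genes passed the genotype test in either segment or over both. The comparison asks whether loss of miR-34/449 goes with a different level of each matrix transcript. By edgeR's quasi-likelihood test, with p-values adjusted over all tested genes (Benjamini-Hochberg) and a threshold of 0.05, 0 of 8 were called over both segments, where 0.357% of all genes were called. In the lumbar cord 0 of 8 were called against 0.041% of all genes, and in the thoracic cord 0 of 8 against 0.0352%. Over both segments, 3 of the 8 had an unadjusted p under 0.05 (Bcan, Hapln1 and Tnc), where 19.1% of all genes did. In the thoracic cord 2 did (Bcan and Hapln1), against 19.9% of all genes, and in the lumbar cord 0, against 5.7%. With limma-voom the count of adjusted calls was again 0 in each of these comparisons. With DESeq2 it was 2 over both segments, Bcan (adjusted p = 0.0175) and Hapln1 (adjusted p = 0.0287). DESeq2 called 672 genes in all there, against 61 by edgeR. In the thoracic cord DESeq2 called 1 of the 8, Bcan (adjusted p = 0.00705), and 429 genes in all, against 6 by edgeR. In the lumbar cord it called 0 of the 8. The median log2 value of the 8 genes was -0.03 over both segments, 0 in lumbar and -0.08 in thoracic cord, and that of all tested genes was 0, -0.001 and -0.01 in the same comparisons. Over both segments 4 of the 8 lay above 0 and 4 below.

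**Figure D2:**
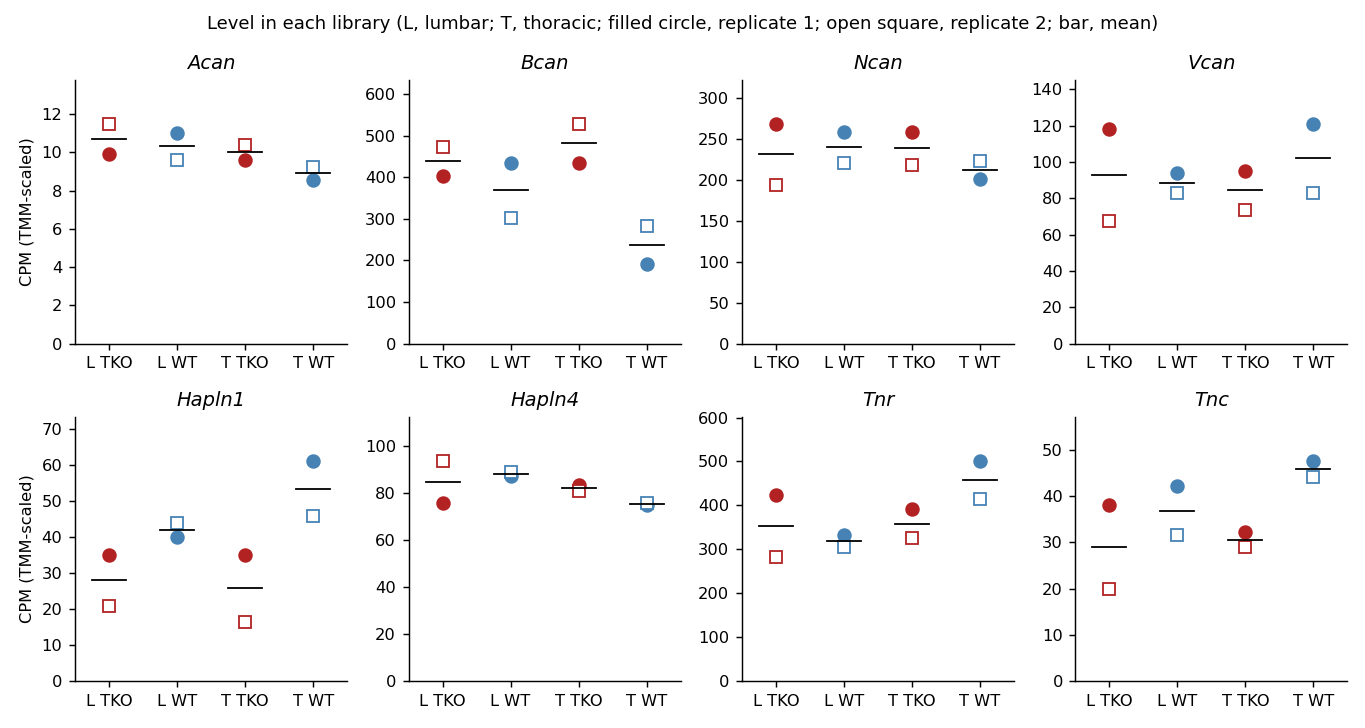
CPM of each gene in each library on linear axes from 0; L is lumbar, T thoracic, red TKO, blue WT, filled circles replicate 1, open squares replicate 2 and bars means. Hapln1 is the only panel of the 8 in which all 4 TKO libraries (16.4 to 35 CPM) lie below all 4 WT libraries (40.1 to 61.1 CPM).

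Bcan encodes brevican, the lectican of the mature central nervous matrix that also sits at nodes of Ranvier (chromosome 3, 87987531 to 88000230, minus strand, GRCm38). It had 404 and 474 CPM in lumbar TKO against 435 and 303 CPM in lumbar WT libraries. In thoracic cord it had 435 and 529 CPM in TKO against 191 and 283 CPM in WT libraries. The lumbar groups overlapped, and both thoracic TKO libraries were above both thoracic WT libraries. Over both segments the log2 difference was 0.64 (SE 0.171, 95% interval 0.25 to 1.03), a fold of 1.56, with an adjusted p of 0.137. In thoracic cord it was 1.03 (SE 0.244, adjusted p = 0.194), a fold of 2.04, and in lumbar cord 0.25 (SE 0.242, adjusted p = 0.929). The test of the difference between these segment effects gave -0.78 (lumbar minus thoracic, SE 0.342, unadjusted p = 0.049, adjusted p = 0.852). The value over both segments was 0.44 to 0.80 under the alternatives that did not use intron reads, positive in 23 of 23 of them. These include a fit with crossed replicate numbers, described at the end, in which a smaller spread was built in. Without TKO replicate 2 of both segments, the Bcan value was 0.51. In bulk tissue, fewer cells of a type and less RNA per cell cannot be told apart, for this gene and all below.

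Intron reads can come from unspliced RNA, but their origin was not tested here. Those of Bcan were also higher in TKO. They were 56.3 and 61.9 CPM in lumbar TKO against 38.7 and 38.3 CPM in lumbar WT, and 40.1 and 60.3 CPM in thoracic TKO against 29.9 and 27.7 CPM in thoracic WT. On this scaling by gene reads, every TKO library was above every WT library, the closest at 40.1 and 38.7 CPM. How many of all genes had introns apart in this way was not counted. With library sizes from gene reads the intron log2 difference over both segments was 0.71 (SE 0.19, adjusted p = 0.0316 over 12581 genes), and 348 of those genes passed. On that scaling, however, the median over all introns was 0.20. With TMM factors from the intron reads themselves the median was 0 and Bcan had 0.50 (SE 0.14, adjusted p = 0.0808), so the call did not hold. This count of introns was added after the data had been seen.

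Astrocyte markers lay higher in TKO, with 10 of 12 above 0 over both segments and a median log2 of 0.41, although 0 of the 12 passed the test. Their summed level was 8210 to 9710 CPM in TKO against 7220 to 7910 CPM in WT libraries. Markers of oligodendrocyte precursors, another source of brevican, had 7 of 12 above 0, a median of 0.20 and a sum of 1610 to 1950 CPM in TKO against 1580 to 1780 CPM in WT, and 0 passed. Within the TKO pairs, replicate 2 had the higher Bcan value but the lower sums of both lists. Astrocyte sums in replicates 1 and 2 were 9690 and 8210 CPM in lumbar and 9710 and 9190 CPM in thoracic TKO. Precursor sums were 1850 and 1610 CPM, and 1950 and 1800 CPM. In the WT pairs, the library with more Bcan had the higher precursor sum in both segments and the higher astrocyte sum in lumbar cord only. No marker of either list was at 0 in all libraries. The part of these cell types in the Bcan values was not tested.

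Acan encodes aggrecan, the lectican most used to define a perineuronal net (chromosome 7, 79053483 to 79115099, plus strand). It had 9.93 and 11.5 CPM in lumbar TKO against 11 and 9.62 CPM in lumbar WT, and 9.59 and 10.4 CPM in thoracic TKO against 8.57 and 9.26 CPM in thoracic WT. The lumbar groups overlapped and the thoracic ones narrowly did not. The log2 difference over both segments was 0.11 (SE 0.138, 95% interval -0.20 to 0.42, adjusted p = 0.658). Aggrecan is also a cartilage product, and of 9 tested cartilage and bone markers 8 lay above 0 and 0 passed. Their list summed to 188 to 270 CPM in TKO against 136 to 190 CPM in WT, and its part in the Acan values was not tested. That list shares Sox9 with the astrocyte markers and holds Col9a3, which is among the genes most like Bcan below. Its sum is therefore not a measure of cartilage or bone RNA alone. Markers of fast-spiking and other net-bearing neurons summed to 1410 to 1690 CPM in TKO against 1360 to 1510 CPM in WT, and 0 of 11 passed. Of these 7 lay above 0, whereas 8 of 10 markers of all neurons lay below 0.

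Ncan encodes neurocan, the lectican of the young brain and cord (chromosome 8, 70093085 to 70120873, minus strand). It had 269 and 194 CPM in lumbar TKO against 259 and 221 CPM in lumbar WT, and 259 and 219 CPM in thoracic TKO against 201 and 223 CPM in thoracic WT. The groups overlapped in both segments, and the log2 difference was 0.06 (SE 0.138, adjusted p = 0.816). Vcan encodes versican, a large lectican of immature matrix, precursor cells and nodes (chromosome 13, 89655312 to 89742509, minus strand). It had 118 and 67.6 CPM in lumbar TKO against 94.1 and 83.0 CPM in lumbar WT, and 95 and 73.6 CPM in thoracic TKO against 121 and 83.0 CPM in thoracic WT. The spread within a pair exceeded the difference between genotypes, and the log2 difference was -0.10 (SE 0.198, adjusted p = 0.777). Its sign turned to 0.16 without TKO replicate 2 of both segments.

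Hapln1 encodes hyaluronan and proteoglycan link protein 1, also called cartilage link protein, which locks aggrecan and versican onto hyaluronan in perineuronal nets (chromosome 13, 89539796 to 89611652, plus strand). It had 35 and 20.9 CPM in lumbar TKO against 40.1 and 43.8 CPM in lumbar WT, and 35 and 16.4 CPM in thoracic TKO against 61.1 and 45.7 CPM in thoracic WT. All 4 TKO libraries lay below all 4 WT libraries, the only gene of the 8 without overlap over both segments, where 10.7% of all tested genes had none and 5.37% were lower in this way. The means were 26.8 ± 9.61 CPM in TKO and 47.7 ± 9.22 CPM in WT (SD, n = 4 each). The log2 difference was -0.82 (SE 0.25, 95% interval -1.38 to -0.25, adjusted p = 0.166). It was -0.58 in lumbar cord (SE 0.353, adjusted p = 0.918) and -1.05 in thoracic cord (SE 0.355, adjusted p = 0.211). The test of the difference between segments gave 0.47 (lumbar minus thoracic, SE 0.498, adjusted p = 0.856). On leaving out 1 library the thoracic value ran from -1.69 without TKO replicate 1 of that segment to -0.61 without its TKO replicate 2, and the difference between segments from 1.10 to 0.03 in the same fits.

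The size of the Hapln1 value rested on the TKO replicate 2 libraries. Without both of them it was -0.43, against -0.82 with all 8 libraries. It was negative in 23 of 23 alternatives without intron reads, the crossed-number fit among them, from -1.14 to -0.43. With the mitochondrial share as a covariate it was -0.51 (adjusted p = 0.0402), and Bcan in the same fit was 0.44 (adjusted p = 0.0255). That fit called 807 genes in all over both segments, against 61 without the covariate. Intron reads of Hapln1 were too few to test. Of 10 markers of all neurons, 8 lay below 0 with a median log2 of -0.16, and 0 passed. Their sum was 4450 to 5790 CPM in TKO against 5370 to 6230 CPM in WT. Markers of fast-spiking and other net-bearing neurons went the other way, with 7 of 11 above 0, a median of 0.11 and 0 passed. So did the cartilage and bone markers, with 8 of 9 above 0. Meningeal fibroblast markers lay lower in TKO, with 11 of 12 below 0 and a median of -1.39. Their sum was 229 to 396 CPM in TKO against 476 to 878 CPM in WT. In that list 2 passed, both lower, Lum (log2 -1.70, adjusted p = 0.00471) and Dcn (-1.40, adjusted p = 0.0346), which encode the small proteoglycans lumican and decorin. Leaving out 1 library ended the call of Lum in 1 of 8 cases (lumbar WT replicate 2) and that of Dcn in 6 of 8 (any but the lumbar TKO libraries). No marker of these lists was at 0 throughout, and their part in the Hapln1 values was not tested.

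Hapln4 encodes the link protein that partners brevican at inhibitory synapses and in nets (chromosome 8, 70083457 to 70090862, plus strand). It had 75.6 and 93.5 CPM in lumbar TKO against 87.2 and 88.7 CPM in lumbar WT, and 83.2 and 80.9 CPM in thoracic TKO against 75.0 and 75.6 CPM in thoracic WT. The lumbar groups overlapped and both thoracic TKO libraries were higher. The log2 difference over both segments was 0.03 with the narrowest interval of the 8 genes (SE 0.109, 95% interval -0.21 to 0.28, adjusted p = 0.876). Only 75 of its 11397 exon reads over the 8 libraries, 0.658%, crossed an exon junction, although the gene model has 9 exons. The median over 12250 genes with several exons and at least 500 exon reads was 22.2%, and 2.78% of them had a lower share. Hapln1, with 7 exons, had 9.01%, and Bcan 32.1%. Which exons the Hapln4 reads lay in is not given in the tables.

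Tnr encodes tenascin-R, the trimer that links lecticans in nets (chromosome 1, 159523769 to 159931729, plus strand). It had 424 and 283 CPM in lumbar TKO against 332 and 305 CPM in lumbar WT, and 392 and 325 CPM in thoracic TKO against 501 and 415 CPM in thoracic WT. The TKO pair enclosed the WT pair in lumbar cord and lay below it in thoracic cord. The log2 difference was 0.15 in lumbar cord (SE 0.214, adjusted p = 0.957) and -0.35 in thoracic cord (SE 0.214, adjusted p = 0.358), and the difference between segments was 0.51 (SE 0.303, adjusted p = 0.852). Over both segments it was -0.10 (SE 0.151, adjusted p = 0.711), and its sign turned to 0.10 without TKO replicate 2 of both segments. Of markers of its source, the oligodendrocyte lineage, all 12 of myelinating cells and 7 of 12 of precursors lay above 0. Their part in the Tnr values was not tested.

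Tnc encodes tenascin-C, the hexameric tenascin of developing and injured tissue (chromosome 4, 63959785 to 64047015, minus strand). It had 38.1 and 20 CPM in lumbar TKO against 42.1 and 31.6 CPM in lumbar WT, and 32.3 and 28.9 CPM in thoracic TKO against 47.6 and 44.2 CPM in thoracic WT. The lumbar groups overlapped and both thoracic TKO libraries were lower. Over both segments the means were 29.8 ± 7.59 CPM in TKO and 41.4 ± 6.92 CPM in WT (SD, n = 4 each), with a log2 difference of -0.46 (SE 0.199, adjusted p = 0.255). Its intron reads averaged 3.80 ± 1.03 CPM in TKO and 6.04 ± 1.77 CPM in WT, a log2 difference of -0.65 (SE 0.229, adjusted p = 0.109). With the introns' own scaling factors this was -0.84 (SE 0.211, adjusted p = 0.0533). Without TKO replicate 2 of both segments the gene-read value was -0.23 (adjusted p = 0.828). The 8 cell cycle genes, a mark of dividing cells, all lay below 0 with a median of -0.88, summing to 38.6 to 72.4 CPM in TKO against 90.4 to 111 CPM in WT. Of these 0 passed, and their part in the Tnc values was not tested. The astrocyte markers, of a main source of tenascin-C, lay the other way, as given above.

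**Figure D3:**
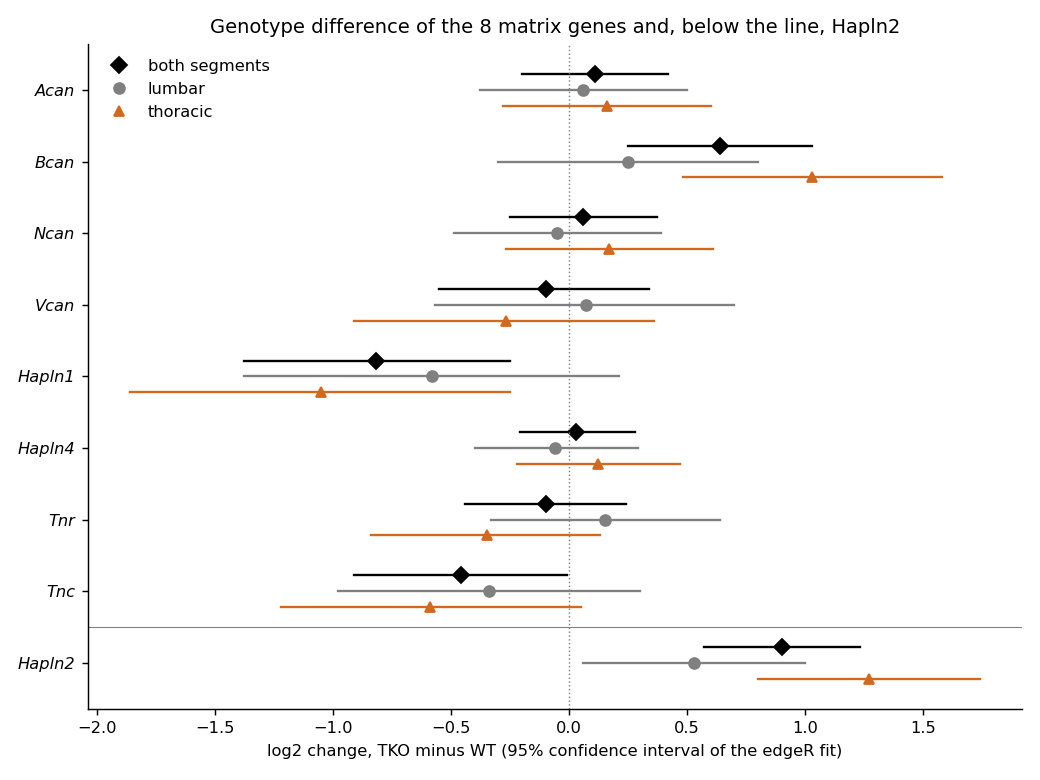
Log2 difference, TKO minus WT, with its 95% confidence interval, for the 8 genes and Hapln2; diamonds are both segments, circles lumbar and triangles thoracic cord. The intervals of Bcan (0.25 to 1.03), Hapln1 (-1.38 to -0.25) and Tnc (-0.91 to -0.01) over both segments leave out 0, before adjustment for the number of genes tested.

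In thoracic cord 6 of the 8 genes had TKO and WT pairs that did not overlap. Acan, Bcan and Hapln4 were higher in both TKO libraries, and Hapln1, Tnr and Tnc were lower. That is 75% of the 8, and with 2 libraries a side 54.2% of all tested genes had no overlap in the same comparison, 26.8% higher and 27.4% lower. In lumbar cord 1 of 8 (Hapln1) did not overlap, against 34.5% of all genes. The test of a difference between the lumbar and thoracic genotype effects called 0 of 8, where it called 0.00586% of all genes. Bcan alone had an unadjusted p under 0.05 there, where 3.5% of all genes did, and DESeq2 and limma-voom called 0 of 8.

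None of the 8 genes passed the test of thoracic against lumbar cord. Thoracic minus lumbar over both genotypes called 0 of 8 in edgeR, DESeq2 and limma-voom, and edgeR called 0.082% of all genes. No member had an unadjusted p under 0.05, against 2.41% of all genes. The largest log2 difference was that of Tnr, 0.27 (SE 0.152, 95% interval -0.07 to 0.61), and Bcan had -0.25 (SE 0.171, 95% interval -0.64 to 0.13). Within TKO, the values were 0.02 for Tnr (SE 0.214) and 0.14 for Bcan (SE 0.241). Within WT, Tnr had 0.52 (SE 0.215, unadjusted p = 0.037, adjusted p = 0.807) and Bcan -0.64 (SE 0.243, unadjusted p = 0.0267, adjusted p = 0.807). These contrasts share the thoracic WT libraries with the thoracic genotype comparison.

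Within the TKO pairs, the libraries numbered 2 differed from those numbered 1 in the same direction in both segments for most of the 8 genes. How many of all genes did so was not counted, so this is not shown to be particular to the set. Deviations of same-numbered lumbar and thoracic TKO libraries correlated at 0.525. The libraries numbered 2 were lower than TKO replicate 1 in both segments for 5 of the 8 genes (Ncan, Vcan, Hapln1, Tnr and Tnc). They were higher in both for 2 (Acan and Bcan) and mixed for 1 (Hapln4). These are the libraries with the low mitochondrial and high intron shares. As a description over the 8 libraries, which share groups and these shares, Pearson's r on log2(CPM + 0.5) was 0.83 between Vcan and Tnr, 0.79 between Hapln1 and Tnc, 0.83 between Acan and Bcan, -0.85 between Bcan and Hapln1, and -0.90 between Hapln4 and Tnr. Ncan had r values nearer 0, from -0.20 to 0.45 with the other genes.

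Ratios within a library remove any scaling common to both genes. Brevican over neurocan, by RPKM, was 2.29 and 3.81 in lumbar TKO against 2.72 and 2.15 in lumbar WT, and 2.70 and 3.84 in thoracic TKO against 1.42 and 2.05 in thoracic WT. The genotypes overlapped in lumbar cord and did not in thoracic cord. Tenascin-R over tenascin-C was 7.44 and 9.46 in lumbar TKO against 5.44 and 6.55 in lumbar WT, and 8.20 and 7.93 in thoracic TKO against 7.55 and 6.46 in thoracic WT. Each TKO pair was above its WT pair, although over both segments the lowest TKO ratio (7.44) was under the highest WT ratio (7.55). Hapln4 over Hapln1 was 3.09 and 6.30 in lumbar TKO against 3.08 and 2.87 in lumbar WT, and 3.34 and 6.99 in thoracic TKO against 1.73 and 2.32 in thoracic WT. All 4 TKO ratios were above all 4 WT ratios, with the closest at 3.09 in TKO and 3.08 in WT, and the high values were those of TKO replicate 2. With Hapln4 nearly level between genotypes, this ratio mostly repeats the Hapln1 values. Over both segments the genotypes overlapped for Bcan over Vcan (11 to 24 in TKO, 4.99 to 15.8 in WT). They also did for Bcan over Acan (70.5 to 106 against 38.1 to 73.3). How many gene pairs separate by genotype was not counted.

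**Figure D4:**
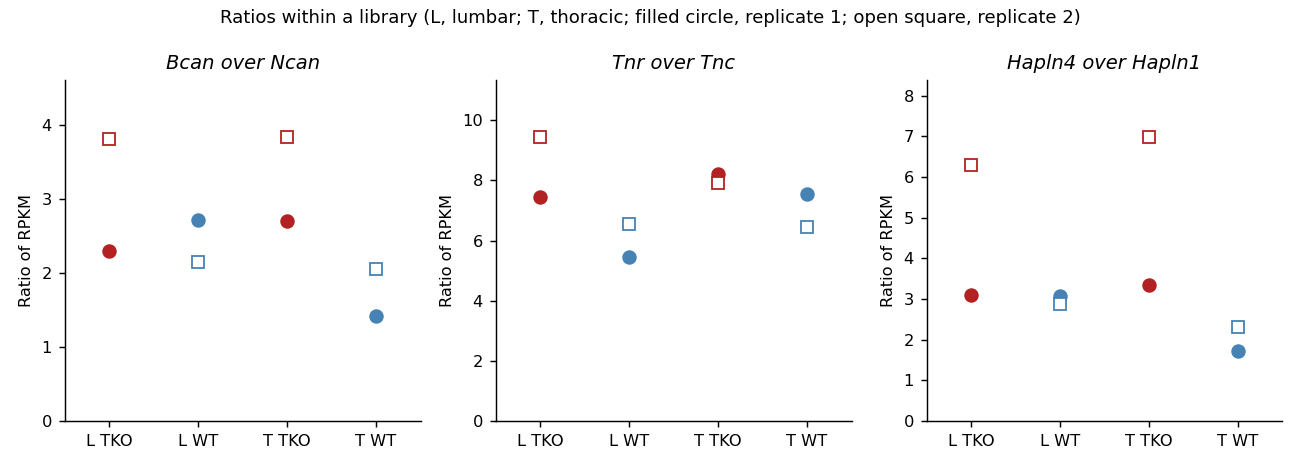
Ratio of deposited RPKM within each library, on linear axes from 0; L is lumbar, T thoracic, red TKO, blue WT, filled circles replicate 1 and open squares replicate 2. Hapln4 over Hapln1 reached 6.30 and 6.99 in TKO replicate 2, against 1.73 to 3.08 in WT.

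Of the summed lectican RPKM, brevican made up 64.9% and 75.8% in lumbar TKO against 69.2% and 63.7% in lumbar WT, and 69.1% and 76.2% in thoracic TKO against 51.8% and 62.7% in thoracic WT. Neurocan took 19.9% to 28.3% in TKO against 25.4% to 36.4% in WT. Versican took 3.18% to 5.9% in TKO against 4.39% to 10.4% in WT, and aggrecan 0.718% to 0.992% in TKO against 0.945% to 1.36% in WT. In thoracic cord the TKO and WT pairs were apart for all 4 lecticans, with brevican's share higher in TKO and the others' lower. In lumbar cord the pairs overlapped for all 4. The shares of a library add up to a fixed total, so they do not move independently. Thoracic Acan and Ncan were not themselves lower in TKO. Mean RPKM in thoracic TKO and WT was 1.07 and 1.06 for Acan, 31.6 and 28.2 for Ncan, and 5.32 and 6.43 for Vcan. With 2 libraries a side, 54.2% of all tested genes had levels without overlap in thoracic cord.

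The 4 link protein genes each sit beside a lectican gene, with 0 annotated genes between them. Bcan and Hapln2 are 21519 bases apart on chromosome 3, Vcan and Hapln1 43659 bases apart on chromosome 13, Ncan and Hapln4 2222 bases apart on chromosome 8, and Acan and Hapln3 2 bases apart on chromosome 7. Neighbours did not share a direction throughout. Hapln2, the link protein of nodes of Ranvier made by oligodendrocytes, rose in TKO, and its value had the same sign as that of Bcan. It had 44.2 and 60.0 CPM in lumbar TKO against 38.8 and 33.3 CPM in lumbar WT, and 70.9 and 93.2 CPM in thoracic TKO against 34.1 and 33.8 CPM in thoracic WT. All TKO libraries were higher, and the log2 difference was 0.90 (SE 0.146, adjusted p = 0.0466), close to the threshold. The alternatives again included the crossed-number fit, which lends no support to any call. Of these 23, the direction held in 23 (0.68 to 1.01) and the call in 10. It was lost on leaving out any single library but TKO replicate 1 of the lumbar cord, 7 of 8 cases, with adjusted p from 0.0251 to 0.246 over the 8. Hapln3, a link protein found mostly outside the nervous system, averaged 2.17 ± 0.41 CPM in TKO and 2.58 ± 0.635 CPM in WT, with a log2 difference of -0.25 (SE 0.197, adjusted p = 0.484). Of the other pairs, Hapln1 and Vcan had -0.82 and -0.10, and Hapln4 and Ncan 0.03 and 0.06, none of them called.

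The wider pathway of the net was followed in 5 lists, 96 tested genes in all, besides the 8. Of these 2 passed over both segments, 2.08% against 0.357% of all genes, and 17 had an unadjusted p under 0.05, 17.7% against 19.1% of all genes. Among 19 other tested hyaluronan-bound and net components, 2 rose, 0 fell, 8 lay above 0 and 11 below, with a median of -0.02. Itih3, a heavy chain of the inter-alpha-trypsin inhibitor that is transferred to hyaluronan, had 108 ± 5.93 CPM in TKO and 54.3 ± 3.84 CPM in WT (SD, n = 4 each), a log2 difference of 0.99 (SE 0.109, adjusted p = 0.0126). Its TKO range of 101 to 113 CPM lay clear of the WT range of 48.6 to 57.1 CPM. Its call held in 16 of 23 alternatives, which again include the crossed-number fit. It was lost in 5 of 8 cases of leaving out 1 library (either lumbar WT, either thoracic WT or thoracic TKO replicate 1), with adjusted p from 0.0196 to 0.106 and a log2 difference of 0.94 to 1.06. The other was Hapln2. Itih3 is also made by astrocytes, whose markers are given above.

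Tnfaip6, whose product TSG-6 moves such heavy chains onto hyaluronan, had 8.04 ± 1.81 CPM in TKO and 3.85 ± 0.171 CPM in WT, a log2 difference of 1.06 (adjusted p = 0.0707). Hmmr, a hyaluronan-binding protein of dividing cells, had 2.16 ± 0.724 CPM in TKO and 4.59 ± 0.46 CPM in WT (-1.10, adjusted p = 0.0942). Both showed no overlap between genotypes, as did 10.7% of all tested genes over both segments, and neither passed the test. Other genes of these lists, Cemip and Dse among them, also showed none.

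Hyaluronan synthesis and turnover had 13 tested genes, of which 0 passed, with 5 above 0, 8 below and a median of -0.10. The smallest p values belonged to the endocytic receptor Stab2 (1.55, adjusted p = 0.141, at most 1.16 CPM in any library), the hyaluronan-degrading Cemip (-0.52, adjusted p = 0.174), the lymphatic receptor Lyve1 (-0.91, adjusted p = 0.261) and the hyaluronidase Hyal2 (0.50, adjusted p = 0.297). Chondroitin sulfate synthesis had 25 tested genes and 0 passed, with 11 above 0, 14 below and a median of -0.04. Dse, the epimerase that turns chondroitin into dermatan sulfate, had 4.19 ± 0.504 CPM in TKO and 6.98 ± 0.757 CPM in WT (-0.73, adjusted p = 0.0942), and its paralog Dsel had -0.68 (adjusted p = 0.224). The chain polymerase factor Chpf2 had 0.53 (adjusted p = 0.266) and the linker galactosyltransferase B3galt6 -0.35 (adjusted p = 0.268).

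Receptors for chondroitin sulfate and tenascins had 17 tested genes and 0 passed, with 8 above 0, 9 below and a median of -0.01. The smallest p values were those of the heparan sulfate proteoglycan Sdc4 (0.48, adjusted p = 0.133), the integrin Itga8 (-0.51, adjusted p = 0.161), the nodal adhesion molecule Nfasc (0.41, adjusted p = 0.199) and the integrin Itgb1 (-0.40, adjusted p = 0.262). Matrix proteases and their inhibitors had 23 tested genes and 0 passed, with 9 above 0, 14 below and a median of -0.03. Adamts4, a lectican-cleaving protease made by oligodendrocytes, had 145 ± 16.4 CPM in TKO and 103 ± 17.1 CPM in WT (0.49, adjusted p = 0.132). Htra1 (0.25, adjusted p = 0.249), the plasminogen activator Plat (0.27, adjusted p = 0.261) and the membrane-bound Mmp14 (-0.25, adjusted p = 0.37) followed. Myelinating oligodendrocytes, the source of Hapln2 and of Adamts4, had all 12 markers above 0 with a median of 0.41, a sum of 60200 to 76800 CPM in TKO against 49900 to 51900 CPM in WT, and 2 called, Klk6 and Opalin. Leaving out 1 library ended the call of Klk6 in 6 of 8 cases (any but the lumbar TKO libraries) and that of Opalin in 7 of 8 (any but lumbar TKO replicate 1). The part of that cell type in these values was not tested.

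**Figure D5:**
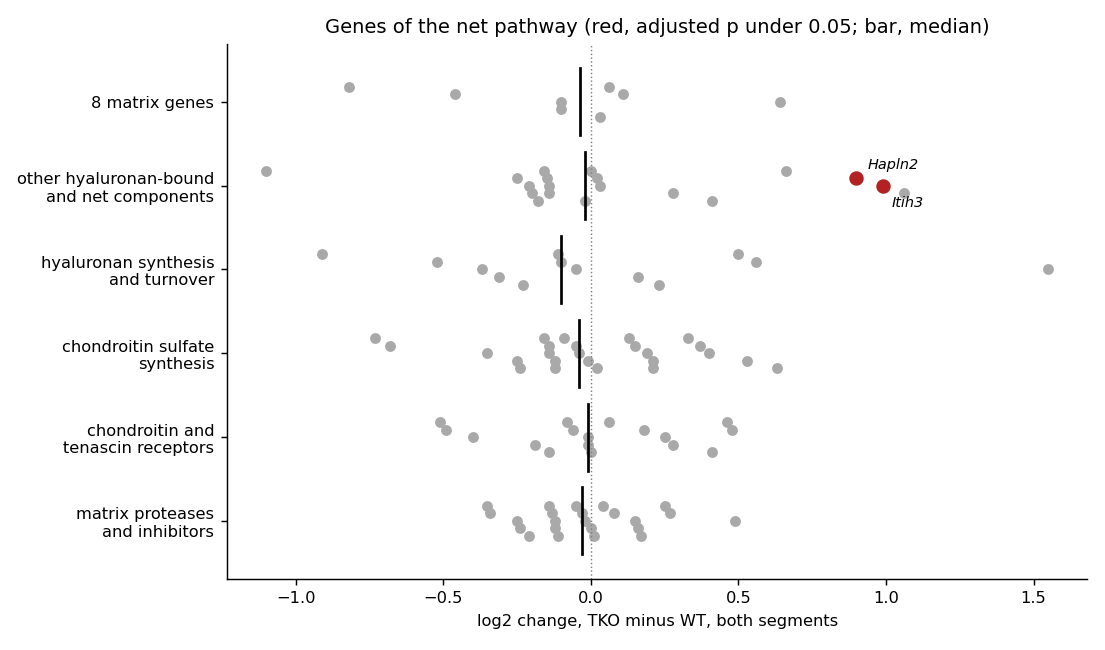
Log2 difference, TKO minus WT over both segments, of each tested gene of the 8 and of the 5 pathway lists; red points passed the test and are named, grey ones did not, and a bar marks each list's median. The medians lie from -0.10 to -0.01, and the 2 genes that passed are Hapln2 (0.90) and Itih3 (0.99).

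For each gene, the 3 genes most like it over the 8 libraries were found by Pearson's r on log2(CPM + 0.5) among 11618 genes with a mean of at least 5 CPM. With so few libraries, which share groups, such r values are a description only. Bcan was closest to Tnfrsf1a (0.992), Samd4b (0.989) and Col9a3 (0.989). Acan was closest to Prdm16 (0.98), P3h3 (0.963) and Calb2 (0.957). Ncan had the weakest likeness, to Gucy1a2 (0.908), Mlc1 (0.841) and Slc13a3 (0.841), of which Mlc1 encodes an astrocyte membrane protein. Vcan was closest to Nadk2 (0.986), Mmp16 (0.981) and Aldh6a1 (0.978). Hapln1 was closest to Sv2b (0.99), which encodes a synaptic vesicle protein, Fam3c (0.99) and Triqk (0.988). Hapln4 was closest to Avpi1 (0.963), Pdap1 (0.955) and Hoxd3os1 (0.953). Tnr was closest to Atp10b (0.988), Ankfy1 (0.968) and Tmem67 (0.967). Tnc was closest to Adam12 (0.986), Gpc4 (0.975) and Tmem181a (0.965).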

How the data were processed

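RNA-seq was done on 8 libraries of mouse spinal cord, 2 for each of lumbar and thoracic TKO and WT. The authors deposited 1 table per library with raw whole-number read counts per gene (total, exon, intron and junction reads), per the file headers. They also deposited RPKM, which divides exon reads by exon length and library total. Per the submitters' processing notes, the build was mm10. Which aligner, counter and strand setting were used is not given in the sources here, so antisense reads could not be told apart. Overlapping antisense gene models at Tnr, Tnc and Vcan that the tables list had at most 19 reads in a library. Libraries held 16195212 to 20907819 gene reads. A count of 0 allows up to 3 reads, or 0.153 to 0.174 CPM, which covers counting error only. Libraries of a group differed by more than counting noise, and none was taken for a duplicate.

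Total gene reads were filtered with filterByExpr, scaled with TMM and fitted with 4 group means in 1 fit of all 8 libraries (edgeR 4.0.16, quasi-likelihood, robust, R 4.3.3). P-values were adjusted by Benjamini-Hochberg over 17067 genes, with a threshold of 0.05. CPM values use the TMM-adjusted library size. The procedure was tested on simulated data. Seed matches were found with Python 3.11.15 in GENCODE M21 UTRs.

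The genes named were all 8 matrix genes, the neighbouring link proteins, in each list those with an adjusted p under 0.05 and, in pathway lists, the 4 with the smallest p, and the 3 most like each gene. Of motor neuron (0 of 10 passed), microglia (2 of 10 passed, both higher, Ctss and Csf1r), Schwann cell and endothelium markers (0 of 6 passed) only summaries are given. Of the Schwann cell markers 1 of 8 passed, Cdh19, which was higher, while 7 of 8 lay below 0 with a median log2 of -0.54. Their sum was 264 to 1640 CPM in lumbar TKO against 1540 to 2570 CPM in lumbar WT, and 104 to 275 CPM in thoracic TKO against 172 to 316 CPM in thoracic WT. Leaving out any single library but lumbar TKO replicate 1 ended the calls of Ctss, Csf1r and Cdh19, with adjusted p up to 0.218 for Ctss, 0.261 for Csf1r and 0.229 for Cdh19. The members and the lists were chosen with earlier results of these data known. Alternatives were other size factors, DESeq2 1.42.0, limma-voom and limma on log2(RPKM + 0.5) or log2(RPKM + 0.1) (limma 3.58.1), other filters, unique or exon reads, mitochondrial genes left out or as a covariate, a replicate block, only the libraries compared, and libraries left out. Intron reads and crossed numbers, a replicate block with those of lumbar WT swapped, were chosen after seeing the data. The crossed fit is among the alternatives counted for each gene, and the intron fits are not.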

Additional observations from a re-analysis of the deposited data

How the results depend on the processing

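The count of called genes among the 8 was 0 in each of the 5 comparisons, and leaving out any 1 library kept it at 0 to 0. In such fits the lone library of a group is assumed to vary like the other groups. Over both segments it became 2 with DESeq2 (672 genes called in all), 2 with the mitochondrial share as a covariate (807 in all) and 1 with intron reads scaled by gene reads. In thoracic cord it became 1 with DESeq2 (429 in all) and 2 with the mitochondrial covariate (987 in all). Fits of only the libraries compared exist for the lumbar and thoracic comparisons. Whether replicate numbers pair the samples is not stated in the labels. Deviations of same-numbered libraries correlated at 0.405 to 0.535 between lumbar TKO, thoracic TKO and thoracic WT, and at -0.419 to -0.314 between each of these and lumbar WT, so the numbers were not used as pairs. With the replicate block the count stayed 0, and 222 genes were called in all over both segments against 61 without it. Crossed numbers, with those of lumbar WT swapped, gave 2 over both segments (4760 genes in all), 2 in thoracic cord (4991) and 1 for the difference between segments (323). The swap was chosen from the correlations of these same libraries, so a smaller spread was built into that fit. Its counts therefore lend no support to any call.

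The signs of these log2 values turned. With the mitochondrial covariate, Vcan was 0.16, Hapln4 -0.02 and Tnr 0.07 over both segments, Acan -0.02 and Ncan 0.01 in lumbar, and Vcan 0.07 in thoracic cord. Without both TKO replicate 2 libraries, Vcan was 0.16, Hapln4 -0.04 and Tnr 0.10 over both segments, and Acan -0.06, Ncan 0.17 and Tnc 0.05 (-0.34 as reported) in lumbar cord. With intron reads, Ncan was -0.28 and Vcan 0.10 over both segments and Ncan -0.47 in thoracic cord. With the introns' own factors, Ncan was -0.50, Hapln4 -0.12, Sdc4 -0.12 (0.48 as reported) and Plat -0.16 (0.27 as reported) over both segments, Tnr -0.25 in lumbar and Ncan -0.59 in thoracic cord. On that scale Tnr was -0.08 for the difference between segments (0.51 as reported) and -0.06 for thoracic minus lumbar in WT (0.52 as reported). Leaving out 1 library, values over both segments ran from -0.06 to 0.17 for Ncan, -0.32 to 0.07 for Vcan, -0.05 to 0.12 for Hapln4 and -0.25 to 0.03 for Tnr. In lumbar cord they ran from -0.05 to 0.17 for Acan, -0.30 to 0.17 for Ncan, -0.38 to 0.42 for Vcan, -0.22 to 0.09 for Hapln4, -0.16 to 0.42 for Tnr and -0.87 to 0.05 for Tnc, and in thoracic cord from -0.52 to 0.02 for Vcan. The cause was not tested.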
